A study of Mus musculus with 2 samples.

Results

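The genes of acyl-CoA metabolism and of the peroxisome were examined in whole-kidney messenger RNA of 2 groups of mice put through kidney ischemia. They were chosen by gene symbol alone, as the rows of the normalized table whose symbols belong to the families of acyl-CoA synthetases (*Acsm*, *Acss*, *Acsl*, *Acsf*, *Acsbg*), acyl-CoA thioesterases (*Acot*), acyl-CoA dehydrogenases (*Acad*), acyl-CoA oxidases (*Acox*), carnitine palmitoyltransferases (*Cpt*), the later β-oxidation enzymes, the peroxins (*Pex*) and the *Abcd* transporters, together with 12 single enzymes. Of the 19829 genes listed, 90 met this rule. By the location of their proteins, 32 were taken as mitochondrial enzymes, 21 as peroxisomal enzymes, 3 as peroxisomal transporters, 17 as peroxins, 4 as enzymes of both organelles and 13 as proteins of other sites.

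The first library, WT+AKI, was made from the kidney of a wild-type (WT) mouse. The second, TG+AKI, was made from a proximal tubule-specific transgenic (TG) mouse with extra *Inmt*, the gene of indolethylamine N-methyltransferase. Both library names carry AKI, for acute kidney injury, after the procedure that both groups underwent. The study reports lower serum urea nitrogen and creatinine and less tubular injury in the transgenic group than in the wild-type group. In the study the same groups are called I/R+WT+Voc and, for the transgene, I/R+Tg+Voc. C57BL/6 mice received voclosporin, a calcineurin inhibitor, by intraperitoneal injection from 8 weeks of age (30 mg/kg/day, over 2 weeks; another passage of the study gives a longer course). Both kidneys were made ischemic for 30 min at 14 weeks of age and then reperfused (I/R). The kidneys were taken after 48 h according to the methods and after 24 h according to a figure legend. The sample labels disagree with this in part, as their treatment field reads as untreated although voclosporin is named for the series, and the transgenic sample is also titled a conditional knockout. There was no sham-operated or untreated group here. Each group had 1 library, so no difference has a replicate check and no test of the genotypes was possible.

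Fatty acids enter metabolism as acyl-CoA thioesters made by acyl-CoA synthetases. Long-chain acyl groups reach the mitochondrial matrix as carnitine esters and are shortened there by β-oxidation, in which each turn uses a dehydrogenase, a hydratase, a second dehydrogenase and a thiolase. Peroxisomes shorten very-long-chain, branched-chain and bile acid side chains with their own oxidases and thiolases, and the peroxins build these organelles by inserting membrane proteins and importing matrix enzymes. Proximal tubule cells are rich in both organelles and draw most of their energy from fatty acids. Many of the genes are targets of PPARα, a nuclear receptor that binds fatty acids and acts as a dimer with a retinoid X receptor.

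Reads assigned to the listed genes summed to 38542764 for WT+AKI against 36427421 for TG+AKI. The deposited values are reads per 1000000 of a library scaled by the trimmed mean of M-values (TMM), and the whole reads behind them could be recovered. Brackets give 95% Clopper-Pearson intervals of the ratio TG+AKI over WT+AKI from these reads. Intervals of a change in the ratio of 2 genes are 95% normal intervals on the log scale from the same reads. Since PCR copies of a molecule could not be told apart, all of these intervals cover counting error only and not the spread between mice. A gene was compared where its value was at least 10 in at least 1 library (424.0 or 331.2 reads, respectively) and was called higher or lower at a change of at least 2-fold after taking log2(value + 1), a scale that shrinks the changes of low genes. The transgene's own gene *Inmt* (gene ID 21743) was 10.4 in WT+AKI and 402.8 in TG+AKI, in the direction of the transgenic label.

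Of the 90 genes, 84 passed the filter, 2 of them (*Acss3* and *Cpt1c*) through 1 library only. In TG+AKI, 16 of the 84 (19.0%) were at least 2-fold higher, beside 5.74% of all 10294 genes compared, and 3 (3.57%) were at least 2-fold lower, beside 7.12% of all. Their median log2 fold change was 0.44, against 0.014 for all genes compared. The interval of the ratio lay above 1 for 60 of the 84, below 1 for 17 and included 1 for 7. Over all 10294 genes compared it lay above 1 for 4304, below 1 for 4069 and included 1 for 1921. Together the 90 genes held 1.44% of all listed values in WT+AKI and 1.99% in TG+AKI.

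The 16 higher genes were 9 mitochondrial enzymes (*Acsm1*, *Acsm2*, *Acsm3*, *Acsm5*, *Acss1*, *Acss3*, *Acads*, *Acadsb* and *Echs1*), 5 peroxisomal enzymes (*Hao2*, *Eci3*, *Pecr*, *Amacr* and *Nudt19*) and 2 enzymes of other sites (*Acsl1* and *Acss2*). The 3 lower genes were *Acsf2*, *Acsl4* and *Cpt1c*. No peroxin was among them, and few of the 15 compared would be at the shares of all genes given above. Mitochondrial and peroxisomal enzymes had nearly the same median log2 fold change, 0.69 (32 genes) and 0.68 (19 of 21 genes), and the peroxins had a lower one, 0.32 (15 of 17 genes). Giving both libraries an equal total shifted the median change of all genes by -0.26, brought these medians to 0.42, 0.41 and 0.058, and left 10 genes at least 2-fold higher and 4 lower. It also turned the sign of 12 of the 84 genes (among them *Cpt1a*, *Cpt2*, *Hadhb*, *Acadl*, *Acad8*, *Pex13*, *Pex26*, *Ech1*, *Crat* and *Acot12*), whereas the other 72 kept their sign under every scaling tried. None of the 19 genes called changed sign.

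**Figure D1:**
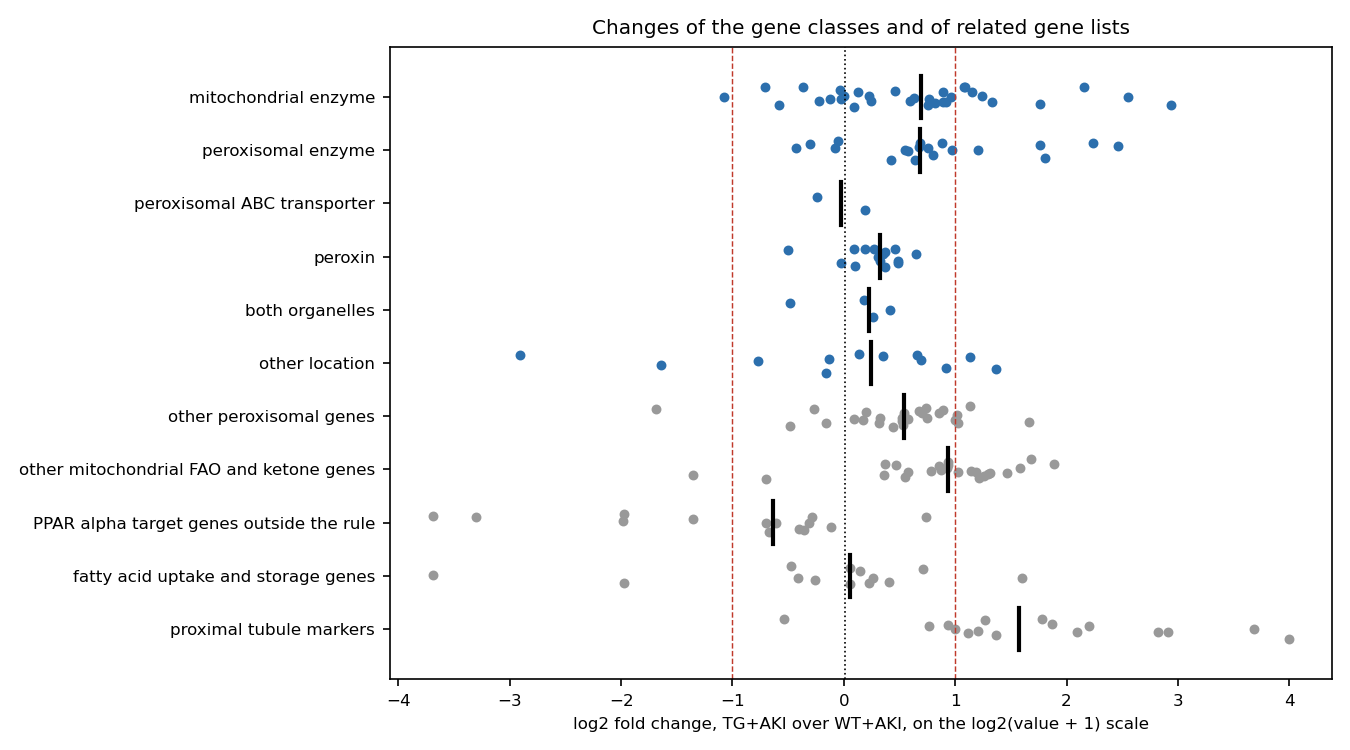
Log2 fold change of TG+AKI over WT+AKI on the log2(value + 1) scale for every gene that passed the filter, by class (blue points, genes selected by symbol; grey points, other gene lists), with 1 library per group. Black bars are medians, the dotted line is the median of all genes compared (0.014), and the dashed lines mark 2-fold. Mitochondrial and peroxisomal enzymes have medians of 0.69 and 0.68, and the peroxins of 0.32. Of the PPARα target genes listed outside the rule, not a full set of targets, 13 of 14 lie below 0.

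The promoters printed here were picked after the ratios were seen. They include those of the most raised mitochondrial gene, *Acsm2*, and the most raised peroxisomal gene, *Hao2*. Promoter windows of 300 bases (250 before the transcription start and 50 after it) were taken from RefSeq on build GRCm38.p6, the reference that corresponds to the mm10 build named in the submitters' processing notes. Of the 90 genes, 70 had at least 1 window, 81 windows in all. They were searched on both strands for 3 motifs. The first is that of HNF1, a factor of proximal tubule and liver genes (GTTAAT and its mirror ATTAAC, 1 base apart, with at most 2 mismatches). The second is the direct repeat bound by PPARα with its partner (AGGTCA, given again after 1 base, with at most 2 mismatches), and the last is TATAAA, with no mismatch. No match to one motif overlapped a match to another. Windows are written 5′ to 3′ along the gene's strand, in lower case with motif matches in capitals.
Acsm2, first window (chr7:119554090-119554389, plus strand, TATAAA match in capitals): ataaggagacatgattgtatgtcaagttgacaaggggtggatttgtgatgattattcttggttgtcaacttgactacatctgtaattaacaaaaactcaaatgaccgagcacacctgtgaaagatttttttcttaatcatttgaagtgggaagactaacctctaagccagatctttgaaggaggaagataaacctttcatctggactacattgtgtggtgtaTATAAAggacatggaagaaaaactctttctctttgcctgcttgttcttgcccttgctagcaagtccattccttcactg
Acsm2, second window (chr7:119561458-119561757, plus strand, HNF1 motif match in capitals): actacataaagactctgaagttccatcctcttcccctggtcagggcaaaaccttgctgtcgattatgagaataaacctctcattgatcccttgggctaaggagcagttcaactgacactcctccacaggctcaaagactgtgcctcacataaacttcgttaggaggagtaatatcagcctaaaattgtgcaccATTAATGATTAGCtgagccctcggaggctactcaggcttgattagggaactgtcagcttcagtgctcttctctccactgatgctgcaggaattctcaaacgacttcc
Hao2 (chr3:98893181-98893480, minus strand, 2 HNF1 motif matches in capitals): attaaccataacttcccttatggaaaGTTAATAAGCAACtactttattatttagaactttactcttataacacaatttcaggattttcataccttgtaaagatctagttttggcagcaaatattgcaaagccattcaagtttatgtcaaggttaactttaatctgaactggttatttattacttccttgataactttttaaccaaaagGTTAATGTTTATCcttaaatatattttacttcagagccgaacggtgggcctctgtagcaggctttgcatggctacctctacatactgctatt
Eci3 (chr13:34963760-34964059, minus strand, no match): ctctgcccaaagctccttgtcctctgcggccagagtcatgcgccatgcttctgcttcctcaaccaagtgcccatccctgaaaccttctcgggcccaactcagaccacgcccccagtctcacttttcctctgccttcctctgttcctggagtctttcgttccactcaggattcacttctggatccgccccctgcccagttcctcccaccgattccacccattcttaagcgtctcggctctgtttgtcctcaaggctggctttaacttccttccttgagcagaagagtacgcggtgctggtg
Echs1 (chr7:140116372-140116671, minus strand, direct repeat match in capitals): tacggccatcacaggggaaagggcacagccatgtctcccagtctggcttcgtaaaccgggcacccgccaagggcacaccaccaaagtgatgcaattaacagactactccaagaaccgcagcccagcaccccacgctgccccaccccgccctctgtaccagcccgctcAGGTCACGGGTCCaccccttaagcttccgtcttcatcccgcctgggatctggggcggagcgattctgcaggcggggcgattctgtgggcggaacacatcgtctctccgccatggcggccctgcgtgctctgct

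The HNF1 motif was found in 3 of the 81 windows (3.70%), beside 1.36% of all 32851 windows. These were the second *Acsm2* window, where it began at -57 from the start site, the *Hao2* window at -224 and -42, and that of *Pex26* at -68. *Acsm2* and *Hao2* had the highest ratios among the mitochondrial and peroxisomal enzymes that passed the filter, whereas *Pex26*, a membrane anchor of the import machinery, was 23.5 in WT+AKI and 27.0 in TG+AKI. The direct repeat was found in 4 windows (4.94%, beside 3.86% of all), those of *Echs1*, *Acox2*, *Acot4* and *Acot12*. TATAAA was found in 6 windows (7.41%, beside 13.6% of all). No other gene called higher that had a window had an HNF1 match. *Acss3* and *Amacr*, also called higher, had no window and were not searched. Any relation of the motifs to the ratios was not tested. A match describes letters only and is no evidence of binding.

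The medium-chain acyl-CoA synthetases of the mitochondrial matrix held the 2 highest ratios of the 84 genes. They activate medium-chain fatty acids, and benzoate and related acids before conjugation with glycine. *Acsm2* (gene ID 233799) was 598 in WT+AKI (25344 reads) against 4576 in TG+AKI (151530 reads), a ratio of 7.65 [7.55 to 7.76]. *Acsm5* (gene ID 272428) was 26.4 (1120 reads) and 159 (5278 reads), a ratio of 6.03 [5.66 to 6.44]. *Acsm1* (gene ID 117147) was 30.9 (1309 reads) and 141 (4667 reads), a ratio of 4.56 [4.29 to 4.86]. *Acsm3* (gene ID 20216) was 256 (10835 reads) and 607 (20087 reads), a ratio of 2.37 [2.32 to 2.43]. All 4 were at least 2-fold higher, although *Acsm3* fell just short of 2-fold with both libraries at equal totals (log2 fold change 0.97). In mm10 these 4 genes lie on the plus strand of chromosome 7, from 119526131 to 119784896, in the order *Acsm5*, *Acsm2*, *Acsm1* and *Acsm3*. They share a locus, and their ratios do not follow their order along it. Only listed genes were placed, so other genes of the family may lie among them. *Acsm2* ranked 120 among all listed genes by value in WT+AKI but 15 in TG+AKI. Its share of the summed values of the 90 genes went from 4.57% to 20.9%. Exons on the other strand cover 39.8% of the *Acsm3* exon bases, and whether the counting used strand was not stated.

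Short-chain synthetases followed the same direction. They make acetyl-CoA or propionyl-CoA from the free acids. The mitochondrial acetyl-CoA synthetase *Acss1* (gene ID 68738) was 126 in WT+AKI (5325 reads) against 317 in TG+AKI (10493 reads), a ratio of 2.52 [2.44 to 2.61]. *Acss3* (gene ID 380660), which prefers propionate, was 6.79 (288 reads) and 25.5 (844 reads), a ratio of 3.75 [3.28 to 4.30], and passed the filter only through TG+AKI. The cytosolic and nuclear acetyl-CoA synthetase *Acss2* (gene ID 60525) was 109 (4602 reads) and 282 (9335 reads), a ratio of 2.60 [2.51 to 2.69]. All 3 *Acss* genes were thus higher in TG+AKI under every scaling. *Acsf3*, the mitochondrial malonyl-CoA synthetase, was 28.2 and 50.6, a ratio of 1.79 [1.66 to 1.93], short of 2-fold. *Acsf2* (gene ID 264895), another mitochondrial synthetase of medium chains, went the other way, with 47.9 in WT+AKI (2032 reads) against 22.3 in TG+AKI (737 reads), a ratio of 0.464 [0.426 to 0.505]. Of its 100-base words 21.9% occur in another gene, so its reads may be split.

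The long-chain acyl-CoA synthetases were divided. *Acsl1* (gene ID 14081), which feeds fatty acids to oxidation and storage in many tissues, was 163 in WT+AKI (6893 reads) against 358 in TG+AKI (11852 reads), a ratio of 2.20 [2.14 to 2.27] that fell short of 2-fold at equal totals (log2 fold change 0.86). *Acsl4* (gene ID 50790), which prefers arachidonate and is a known determinant of ferroptosis, was 171 (7238 reads) and 54.0 (1787 reads), a ratio of 0.316 [0.300 to 0.333]. The ratio of *Acsl1* to *Acsl4* therefore went from 0.952 to 6.63, a change of 6.96-fold [6.56 to 7.39] that does not depend on the scaling. *Acsl5*, of mitochondria and endoplasmic reticulum, was 132 and 76.8, a ratio of 0.582 [0.555 to 0.610], and *Acsl3*, of lipid droplets, was 16.5 and 27.3, a ratio of 1.65 [1.50 to 1.83]. *Acsbg1*, a very-long-chain synthetase of brain and steroid-forming tissue, did not pass the filter, with 253 reads in WT+AKI and 23 in TG+AKI.

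The carnitine palmitoyltransferases of the mitochondria were nearly level. *Cpt1a*, which makes acylcarnitines at the outer mitochondrial membrane and sets the rate of long-chain entry, was 479.5 in WT+AKI (20331 reads) against 480.1 in TG+AKI (15900 reads), a ratio of 1.001 [0.981 to 1.02]. *Cpt1b*, the muscle form, was 27.5 and 26.8, a ratio of 0.977 [0.894 to 1.07], and 91.1% of its 100-base words are shared with a readthrough transcript. *Cpt2*, which returns the acyl group to CoA inside, was 155 and 165, a ratio of 1.06 [1.03 to 1.10]. With both libraries at equal totals, and with the median ratio set to 1, *Cpt1a* and *Cpt2* were lower in TG+AKI. *Slc25a20*, the carrier that exchanges acylcarnitine for carnitine and is outside the symbol rule, was 86.0 and 52.7, a ratio of 0.613 [0.579 to 0.649]. *Cpt1c* (gene ID 78070), a brain form with little catalytic activity, was 17.6 (746 reads) and 1.48 (49 reads), 11.9-fold lower in TG+AKI [8.90 to 16.2], the lowest ratio of the 84 genes, and it passed the filter only through WT+AKI.

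The acyl-CoA dehydrogenases open each turn of mitochondrial β-oxidation and differ in the chains they accept. *Acadvl*, for very long chains, was 287 in WT+AKI (12161 reads) against 282 in TG+AKI (9330 reads), a ratio of 0.982 [0.956 to 1.01]. *Acadl*, for long chains, was 295 and 346, a ratio of 1.17 [1.14 to 1.20], which fell below 1 at equal totals. *Acadm* (gene ID 11364), for medium chains, was 438 (18579 reads) and 814 (26948 reads), a ratio of 1.86 [1.82 to 1.89]. *Acads* (gene ID 11409), for short chains, was 85.7 (3633 reads) and 183 (6064 reads), a ratio of 2.14 [2.05 to 2.23]. *Acadsb* (gene ID 66885), for short branched chains from isoleucine, was 74.5 (3157 reads) and 166 (5503 reads), a ratio of 2.23 [2.14 to 2.33]. Over these 5 genes, listed from very long to short chains, the intervals of neighbours did not overlap up to *Acads*, and those of *Acads* and *Acadsb* did. The other dehydrogenases of the class did not extend this order, and *Acad8* and *Acad9*, given below, went against it. At equal totals *Acads* and *Acadsb* fell short of 2-fold, with log2 fold changes of 0.81 and 0.87. Against *Acadvl* in the same library, *Acadm* went from 1.53 to 2.89, a change of 1.89-fold [1.83 to 1.95], and *Acads* by 2.18-fold [2.07 to 2.29].

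*Acad8*, which takes a short branched chain of valine breakdown, was 65.7 and 78.2, a ratio of 1.19 [1.13 to 1.26] that lay close to *Acadl* and below *Acadsb*. *Acad9*, which takes long chains and helps to assemble complex I, was 51.2 and 87.4, a ratio of 1.71 [1.61 to 1.81] that lay above *Acadl*. *Acad10* and *Acad12*, which share some of their words, were 42.4 and 83.5 and 19.5 and 37.7, with ratios of 1.97 [1.85 to 2.09] and 1.94 [1.77 to 2.12]. In all, 8 of the 9 mitochondrial acyl-CoA dehydrogenases had a ratio above 1, and 6 of 9 with both libraries at equal totals. Beside them, 5274 of all 10294 genes compared had a positive change, and 3048 at equal totals. *Acad11*, found in both organelles, was 266 and 355, a ratio of 1.34 [1.30 to 1.37].

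**Figure D2:**
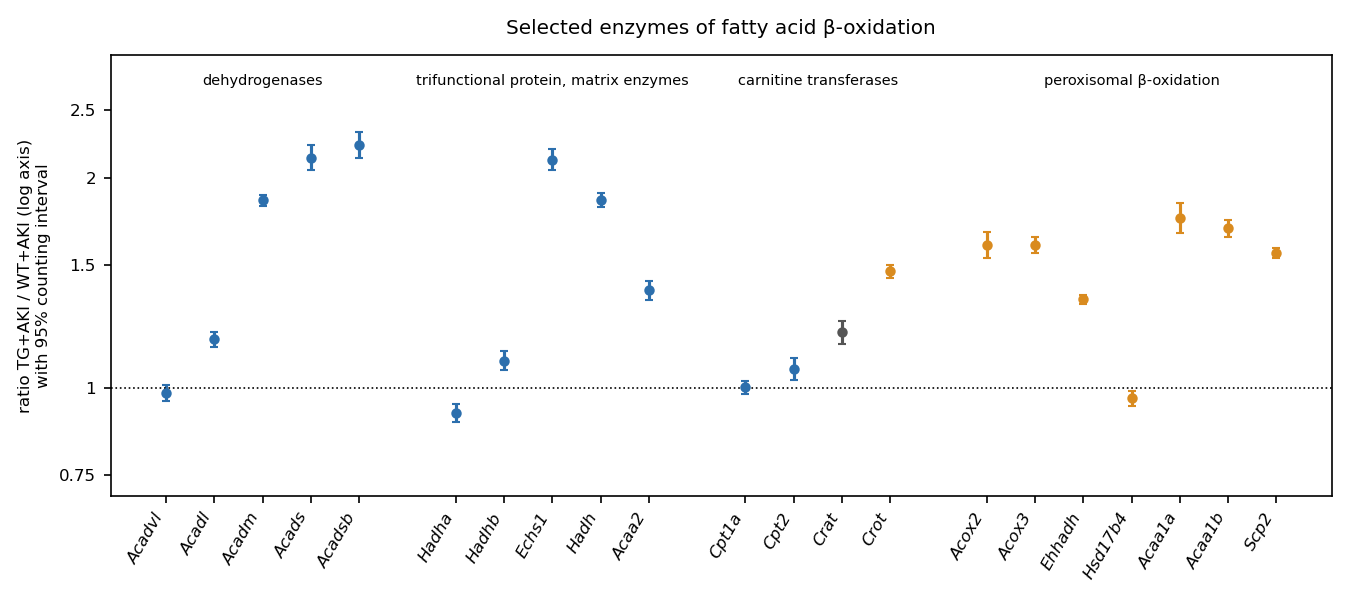
Ratio of TG+AKI over WT+AKI (log axis) for selected β-oxidation enzymes, with 95% counting intervals and 1 library per group; blue marks mitochondrial, orange peroxisomal and grey (*Crat*) both locations, and the dotted line is a ratio of 1. Of the dehydrogenases, those plotted step up from *Acadvl* (0.982) to *Acadsb* (2.23), whereas *Acad8* (1.19) and *Acad9* (1.71), not plotted, go against this order. The trifunctional protein genes *Hadha* and *Hadhb* stay near 1, and *Echs1* and *Hadh* lie at 2.12 and 1.86. In the peroxisome *Hsd17b4* stays near 1.

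The enzymes that complete the turn differed among themselves. *Hadha* and *Hadhb* encode the α and β subunits of the trifunctional protein of the inner membrane, which handles long chains, and they lie head to head on chromosome 5. *Hadha* was 239 in WT+AKI (10139 reads) against 220 in TG+AKI (7280 reads), a ratio of 0.919 [0.892 to 0.947], and *Hadhb* was 210 (8899 reads) and 230 (7602 reads), a ratio of 1.09 [1.06 to 1.13] that fell below 1 at equal totals. Of the words of *Hadhb*, 52.8% are shared with another gene model. *Echs1* (gene ID 93747), the short-chain hydratase of the matrix, was 117 (4963 reads) and 249 (8235 reads), a ratio of 2.12 [2.05 to 2.20] that fell short of 2-fold at equal totals (log2 fold change 0.81). *Hadh*, the matrix dehydrogenase of medium and short hydroxyacyl chains, was 268 and 498, a ratio of 1.86 [1.82 to 1.90]. *Acaa2*, the matrix thiolase, was 176 and 243, a ratio of 1.38 [1.34 to 1.42]. Relative to *Hadha* in the same library, *Echs1* was 2.31-fold higher [2.21 to 2.42] and *Hadh* 2.02-fold higher [1.95 to 2.10] in TG+AKI.

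The mitochondrial auxiliary enzymes for unsaturated chains were lower. *Eci1*, which moves a double bond into place, was 85.6 and 66.2, a ratio of 0.773 [0.733 to 0.815], and *Decr1*, the dienoyl-CoA reductase, was 269 and 230, a ratio of 0.854 [0.830 to 0.880]. The isomerase *Eci2*, found in both organelles, was 154 and 110, a ratio of 0.713 [0.684 to 0.742]. *Ech1*, another isomerase of both organelles, was 364 and 414, a ratio of 1.14 [1.11 to 1.16], with the other sign at equal totals. None of these 4 was called.

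**Figure D3:**
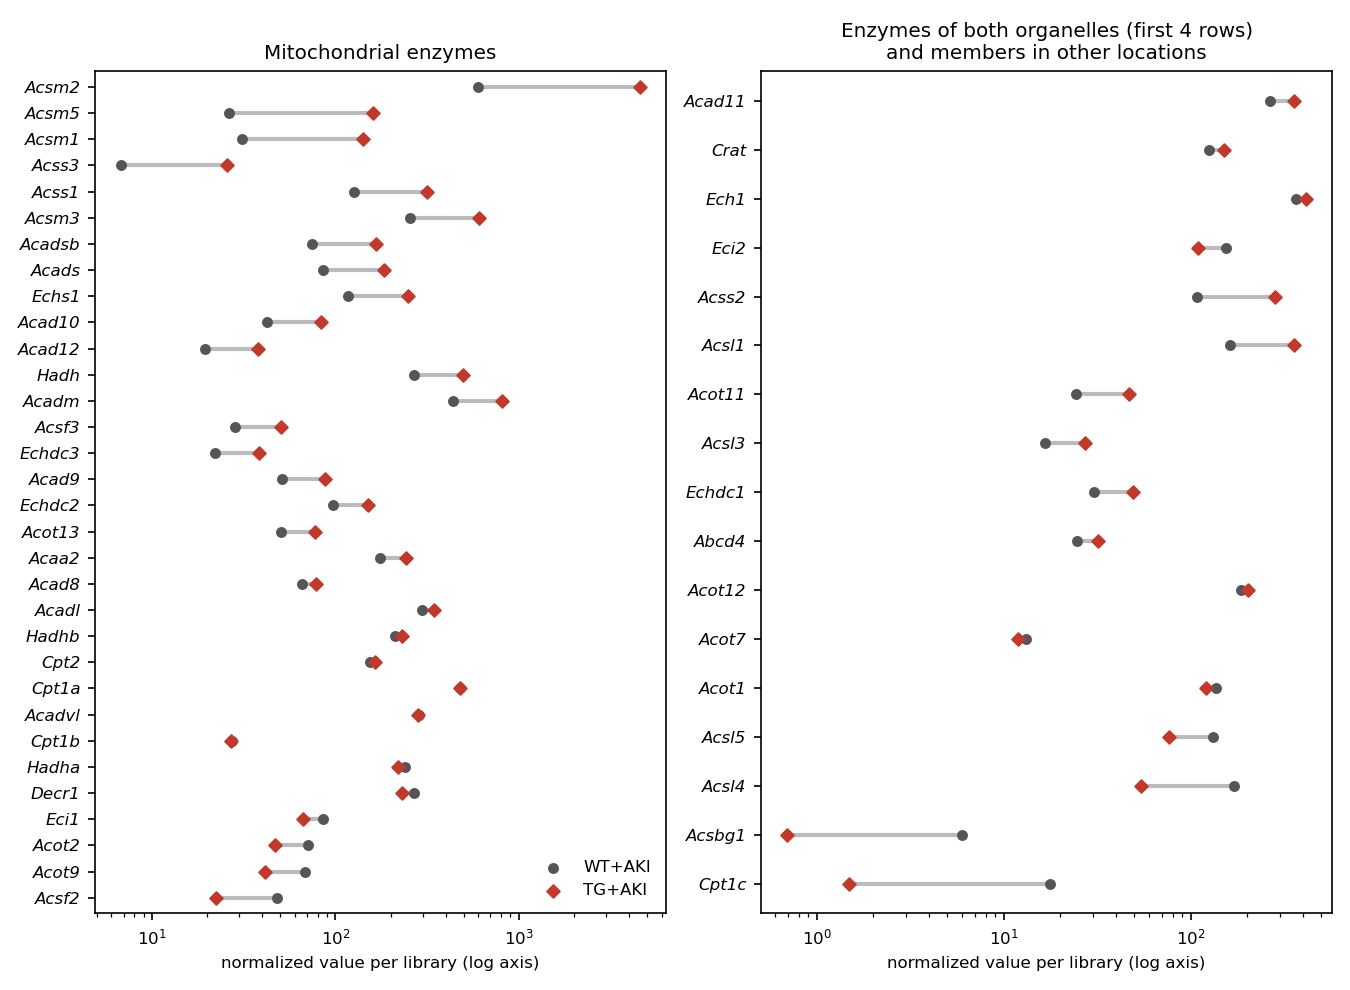
Normalized value per library (log axis) of each mitochondrial enzyme (left) and of the enzymes of both organelles and members in other locations (right), ordered by ratio within class, with 1 library per group. Grey circles are WT+AKI and red diamonds TG+AKI; *Acsm2* moves from 598 to 4576, whereas *Cpt1a* is 479.5 and 480.1.

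Peroxisomal β-oxidation begins with acyl-CoA oxidases, which pass electrons to oxygen and form hydrogen peroxide. *Acox2*, which takes bile acid intermediates and branched chains, was 91.3 and 146, a ratio of 1.60 [1.54 to 1.67]. *Acox3*, for branched chains, was 234 and 376, a ratio of 1.60 [1.56 to 1.65]. Both were thus higher in TG+AKI, within 2-fold, and their intervals overlapped.

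The next steps of the peroxisomal pathway were mostly higher, within 2-fold. *Ehhadh*, the L-specific bifunctional enzyme, was 864 in WT+AKI (36649 reads) against 1158 in TG+AKI (38354 reads), a ratio of 1.34 [1.32 to 1.36]. *Hsd17b4*, the D-specific bifunctional enzyme used for branched and bile acid chains, was 310 and 299, a ratio of 0.965 [0.940 to 0.991]. The thiolases *Acaa1a* and *Acaa1b* were 65.4 and 115 and 220 and 373, with ratios of 1.75 [1.67 to 1.84] and 1.69 [1.65 to 1.74]. These paralogs share 21.7% and 22.6% of their words, and the ratio of *Acaa1b* to *Acaa1a* did not differ between libraries beyond counting error (0.966-fold [0.914 to 1.02]). *Scp2*, the sterol carrier whose long form is the thiolase of branched chains, was 523 and 816, a ratio of 1.56 [1.53 to 1.59], with 32.2% of its words shared with a pseudogene.

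The largest peroxisomal rises were in branched-chain, 2-hydroxy acid and auxiliary enzymes. *Hao2* (gene ID 56185), a 2-hydroxy acid oxidase of the kidney whose promoter is printed above, was 94.5 in WT+AKI (4007 reads) against 526 in TG+AKI (17434 reads), a ratio of 5.57 [5.38 to 5.77]. *Amacr* (gene ID 17117), which turns 2-methyl-branched and bile acid CoA esters into the isomer that the oxidases accept, was 50.4 (2138 reads) and 174 (5754 reads), a ratio of 3.45 [3.28 to 3.62]. *Phyh*, which starts α-oxidation of phytanic acid, was 293 and 575, a ratio of 1.96 [1.92 to 2.01], just under the 2-fold rule.

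Among the auxiliary enzymes, *Eci3* (gene ID 69123), a peroxisomal isomerase abundant in kidney, was 41.5 in WT+AKI (1760 reads) against 199 in TG+AKI (6595 reads), a ratio of 4.80 [4.55 to 5.06]. *Pecr* (gene ID 111175), the trans-2-enoyl-CoA reductase, was 87.9 (3728 reads) and 311 (10287 reads), a ratio of 3.53 [3.40 to 3.67]. *Decr2*, the peroxisomal dienoyl-CoA reductase, was 85.3 and 68.7, a ratio of 0.806 [0.764 to 0.849]. The isomerases thus exchanged order, since *Eci3* was at 0.269 of *Eci2* in WT+AKI and at 1.81 in TG+AKI, a change of 6.73-fold [6.30 to 7.19]. *Nudt19* (gene ID 110959), a peroxisomal CoA diphosphatase of the kidney, was 142 (6013 reads) and 328 (10861 reads), a ratio of 2.31 [2.24 to 2.39], and at equal totals it fell short of 2-fold. Other-strand exons cover 35.0% of its exon bases.

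Carnitine transferases that release shortened chains were moderately higher. *Crot*, the peroxisomal octanoyltransferase, was 373 and 548, a ratio of 1.47 [1.44 to 1.50]. *Crat*, the acetyltransferase of both organelles, was 125 and 151, a ratio of 1.20 [1.16 to 1.25], which was below 1 at equal totals.

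**Figure D4:**
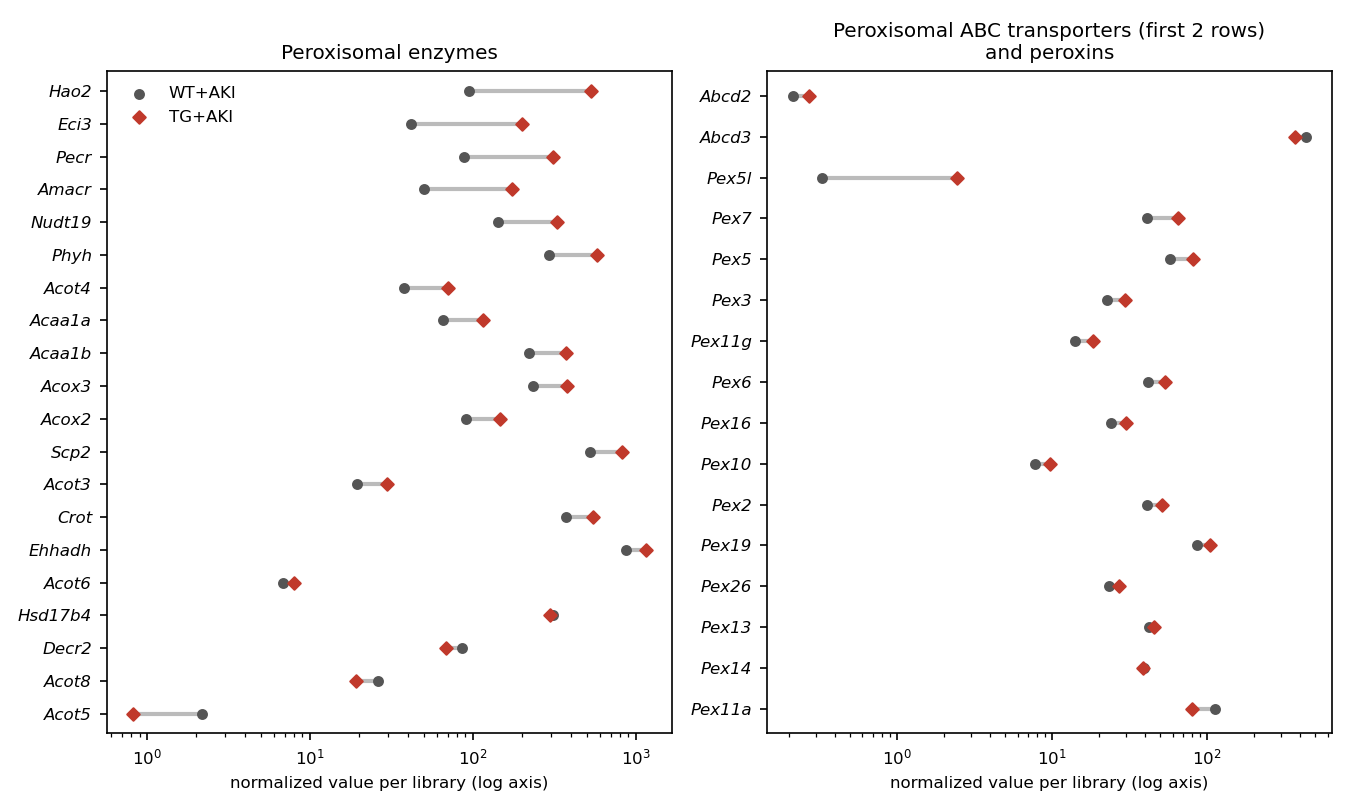
Normalized value per library (log axis) of peroxisomal enzymes (left) and of peroxisomal ABC transporters and peroxins (right), ordered by ratio within class, with 1 library per group. Grey circles are WT+AKI and red diamonds TG+AKI; *Hao2* moves from 94.5 to 526, and among the peroxins shown with a value of at least 10 the widest gaps are *Pex7* (40.9 and 64.8) and *Pex11a* (113 and 79.6).

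The thioesterases, which free fatty acids from CoA, had no common direction. Of the 12 *Acot* genes, 10 passed the filter, and 5 had a positive and 5 a negative change. None was called, and few of 10 would be at the shares of all genes compared (5.74% higher, 7.12% lower). *Acot2*, mitochondrial, was 70.5 and 46.7, and *Acot1*, cytosolic, was 136 and 121. *Acot4* and *Acot3*, both peroxisomal, were 37.9 and 70.7 and 19.5 and 29.7. These genes form a cluster with *Acot5* and *Acot6* on chromosome 12, from 83987861 to 84109783 in mm10, and neighbours in it differed. The ratios along it were 0.663 for *Acot2*, 0.893 for *Acot1*, 1.87 for *Acot4* and 1.52 for *Acot3*. *Acot1*, *Acot2* and *Acot3* share 14.4% to 21.9% of their words, so that reads may be split among them. *Acot5* (92 and 27 reads) and *Acot6* (288 and 266 reads) were under the filter. Outside the cluster, *Acot9* was 68.2 and 41.3, *Acot8* 26.2 and 19.1, *Acot7* 13.2 and 11.9, *Acot12* 185 and 203, *Acot13* 50.8 and 77.1, and *Acot11*, a thioesterase of thermogenic tissue, 24.5 and 47.0.

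The hydratase-like proteins were higher, all within 2-fold. *Echdc1*, which destroys side products of fatty acid synthesis, was 30.5 and 48.9, *Echdc2* 97.1 and 150, and *Echdc3* 22.2 and 38.5. Among the peroxisomal transporters, *Abcd3*, which imports branched chains and bile acid intermediates, was 437 and 371, a ratio of 0.848 [0.828 to 0.867]. *Abcd2* had 9 reads in each library, and *Abcd4*, a lysosomal protein of cobalamin export, was 24.7 and 31.9.

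Of 17 peroxins listed, 15 passed the filter. None was at least 2-fold higher or lower, beside 5.74% and 7.12% of all genes compared. At these shares few calls would be found among 15 genes, so the lack of calls says little. The ratios of the peroxins that passed ran from 0.706 to 1.58, and 13 of 15 had a positive change (10 of 15 at equal totals). Of all 10294 genes compared, 5274 had a positive change (3048 at equal totals). The import receptors were both higher, *Pex7*, for enzymes with an N-terminal signal, with 40.9 and 64.8 (ratio 1.58 [1.49 to 1.69]) and *Pex5*, for the C-terminal signal of most matrix enzymes, with 57.6 and 81.0 (ratio 1.41 [1.33 to 1.49]). The docking proteins were nearly level, *Pex14* at 39.2 and 38.5 and *Pex13* at 42.2 and 45.2. The ubiquitin ligase gene *Pex2*, which serves to recycle the receptors, was 41.0 and 51.0. *Pex10*, of the same complex, had values of 7.81 and 9.78 and stayed under the filter.

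The receptor-recycling ATPase *Pex6* and its anchor *Pex26* had ratios of 1.30 [1.21 to 1.38] and 1.15 [1.05 to 1.26]. The genes for membrane protein insertion had ratios of 1.31 [1.20 to 1.43] for *Pex3*, 1.26 [1.16 to 1.38] for *Pex16* and 1.21 [1.16 to 1.27] for *Pex19*. Among the division factors, *Pex11a*, the inducible form and a PPARα target, was 113 (4780 reads) and 79.6 (2636 reads), a ratio of 0.706 [0.673 to 0.741]. *Pex11g* was 14.1 and 18.3, a ratio of 1.30 [1.16 to 1.45], in the other direction. *Pex5l*, a relative of *Pex5* expressed in neurons, had 14 and 81 reads and stayed under the filter.

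Genes of the same pathways outside the symbol rule were counted from lists. Of all genes compared, 5.74% were at least 2-fold higher and 7.12% lower. Of 32 other peroxisomal genes, 26 passed the filter, 5 were at least 2-fold higher and 1 lower, with a median of 0.54. Catalase (*Cat*), which removes the hydrogen peroxide of the oxidases, was 638 and 1041, and *Slc25a17*, a peroxisomal carrier of CoA and related nucleotides, was 139 and 99.0. *Dao*, the D-amino acid oxidase, was 107 and 340, and *Xdh*, xanthine dehydrogenase, was the lower gene, with 146 and 44.6. Of 24 other mitochondrial genes of fatty acid, branched-chain and ketone metabolism, all passed, 11 were higher and 1 lower, with a median of 0.93. *Oxct1* and *Acat1*, which use ketone bodies, were 377 and 1392 and 246 and 788, and *Pcca*, of propionate breakdown, was 48.9 and 148. *Etfdh*, which passes electrons from the acyl-CoA dehydrogenases to the respiratory chain, was 174 and 242.

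The genes listed here as PPARα targets outside the symbol rule mostly lay in the other direction from the median of the enzymes. This list was chosen with earlier results of these data known and is not a full set of targets. Its counts therefore do not speak for PPARα targets in general. Of 14 that passed (17 of 19 listed), 13 had a negative change, 5 were at least 2-fold lower and none higher, with a median of -0.64. Of these 14, several also stand in other lists, *Plin2*, *Angptl4*, *Slc25a20* and *Mlycd* among them. *Plin2*, a lipid droplet coat, was 884 and 67.4, *Pdk4*, which turns off pyruvate oxidation, was 221 and 21.5, *Angptl4*, an inhibitor of lipoprotein lipase, was 224 and 56.3, and *Ucp2*, a mitochondrial carrier, was 206 and 51.3. Of 14 regulators of the pathway that passed, none was called, and few would be at the shares of all genes (5.74% higher, 7.12% lower). *Ppara* itself was 187 and 145, its partner *Rxra* 104 and 154, and the coactivator *Ppargc1a* 53.5 and 106. Of 13 fatty acid uptake and storage genes that passed, 1 was higher (*Lpl*, lipoprotein lipase, with 147 and 448) and 2 lower (*Plin2* and *Angptl4*), with a median of 0.058.

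Markers of the proximal tubule mostly moved in the direction of these genes, and those of other cell types varied. Whole kidney was sequenced, in which fewer cells of a type and less RNA per cell cannot be told apart. The kidney label was borne out, as all 16 proximal tubule markers passed the filter. Of these, 13 were at least 2-fold higher in TG+AKI and none lower, beside 5.74% and 7.12% of all genes compared. The 16 had a median of 1.57, with 15 positive changes and 1 negative, and ratios from 0.690 to 16.2. Their summed level went from 8951 to 22891, 2.56-fold higher. Over the same libraries, the summed level of the 32 mitochondrial enzymes was 2.23-fold higher (1.35-fold without the *Acsm* genes), that of the 21 peroxisomal enzymes 1.47-fold higher, and that of the 17 peroxins 1.17-fold higher. *Slc34a1*, the phosphate transporter of the proximal tubule, was 764 and 5397, and *Gatm*, of creatine synthesis, 66.3 and 1075. All 7 tubular injury markers were at least 2-fold lower, beside 7.12% of all genes compared. Of the 7, 4 (*Krt20*, *Havcr1*, *Lcn2* and *Sox9*) passed the filter only through WT+AKI. Their sum went from 12952 to 803, and *Havcr1*, which encodes KIM-1, was 1169 and 2.78. The part of these cell and injury signals in the results above was not tested.

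The other markers varied. Of 8 macrophage markers, 6 were lower and none higher, and these 6 passed the filter only through WT+AKI. The sum of all 8 went from 192 to 81.2, although *Csf1r*, named after its values were seen, was 37.5 and 43.0. Thick ascending limb and distal tubule markers had 4 of 6 at least 2-fold higher and none lower, and collecting duct markers 1 of 8 higher. None of the 6 podocyte and none of the 6 endothelial markers was called, and few would be at the shares of all genes (5.74% higher, 7.12% lower). Of the 7 adipocyte markers only *Cidec* was listed, at 5.66 and 0.181, and the others were not analysed here. Of the 3 hepatocyte markers that passed, 1 was higher (*Ttr*, 22.8 and 75.5) and 1 lower (*Apoc3*, 21.5 and 8.15). *Alb*, the defining hepatocyte gene, was under the filter at 0.802 and 8.27. The part of these cell types in the results above was not tested.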

How the data were processed

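Whole-kidney RNA was sequenced as 1 library per group (WT+AKI and TG+AKI, as the library names give them) with a stranded mRNA kit, and read length was 100 bp. The submitters' notes name STAR 2.7.3a, HTSeq, DESeq2, edgeR, Cufflinks 2.2.1, FastQC and build mm10. The annotation and strand setting of the counting are not given in the sources used here.

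The deposited signal values, normalized per gene by the authors, were whole multiples of 1 value per library for 100% of genes (tolerance 0.01 reads). That value equalled 1 read per 1000000 of a TMM-scaled library (factors 1.10 and 0.909), so whole reads were recovered. No test of the conditions was made. An exact binomial test on reads, which compares the 2 libraries and not the genotypes, called 77 of 84 genes of the rule and 8275 of 10294 in all, at a Benjamini-Hochberg adjusted p under 0.05. The planned test had assumed normalized counts rather than this unit, and its threshold of 10 was kept.

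The genes, classes and lists were chosen with earlier results of these data known. Named with reads and intervals were the genes of at least 2-fold change, the paralog pairs and the highest per kilobase of each class; from other lists, up to 5 of the largest changes and 8 fixed genes. GENCODE M21 gave the coordinates, lengths, shared 100-base words and exon overlaps of all 90 genes. In data simulated for TG+AKI against WT+AKI with counting noise only (9919 genes, 4-fold), 100% of changed genes were recovered. There were 0 others called and 95.4% interval coverage. This checks the calculation and cannot show how the calls would hold between mice. Python 3.11.15, numpy 2.4.6, scipy 1.17.1, pandas 2.3.3, matplotlib 3.10.9, R 4.3.3 and edgeR 4.0.16 were used. Alternatives covered scaling, pseudocount, filter and class assignment. Some genes of the rule and of the lists entered all counts, medians and sums, but their own values are not reported here.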

Additional observations from a re-analysis of the deposited data

How the results depend on the processing

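The main values were 591 genes higher and 733 lower, 16 and 3 of the genes of the rule, and median log2 fold changes of 0.69, 0.68 and 0.32 for mitochondrial enzymes, peroxisomal enzymes and peroxins. With both libraries at equal totals, 348 genes were higher and 1103 lower, 10 genes of the rule were higher, and the medians were 0.42, 0.41 and 0.058. With the median ratio of well-expressed genes set to 1, the medians were 0.55, 0.54 and 0.18. A pseudocount of 10 gave 372 and 408 genes and a mitochondrial median of 0.59. Without a filter 1150 genes were lower. A filter of 50 gave 374 and 295 genes, 1 lower gene of the rule, and medians of 0.63 and 0.76 for mitochondrial and peroxisomal enzymes. Counting the genes of both organelles as mitochondrial gave a mitochondrial median of 0.53. The peroxisomal median minus the mitochondrial one was -0.013 and became 0.072 with a pseudocount of 10, 0.13 with a filter of 50 and 0.15 with the last class choice, so its sign is not settled by these data. The peroxins stayed below the mitochondrial enzymes under every alternative that gave this difference. DESeq2 size factors moved none of these values beyond tolerance. Of 59 named genes, 7 took the other sign at equal totals and 3 with the median ratio at 1, and none of these was called. No library could be left out and no paired analysis was possible because each group had 1 library. Depth limits the precision of the low genes, the lowest of the rule having 9 reads in each library, and the single library per group leaves the spread between mice unknown for all.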
